A study of Homo sapiens with 9 samples.

Results

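H69 cells, an immortalised human cholangiocyte line that is wild type by its labels, were compared after treatment with 10 µM acetazolamide for 48 h and in control culture with DMSO, the solvent, added in a volume of 10 µl. The comparison used 3 acetazolamide and 3 control libraries, that is 6 of the 9 libraries of the study, and the other 3 libraries were from cells given 0.25 µg/cm2 recombinant laminin 511-E8. The cells of every group had been seeded at 100000 per well and grown for 48 h, and treated wells received fresh medium with the agent after 24 h. All libraries came from 1 cell line in monoculture and were made from poly(A) RNA, and the 3 samples of a group are called biological replicates in the labels. Of the 61541 genes in the count tables, 15997 passed a filter on low counts set by group, and 15737 of these also had a known GC content and entered the fit in which each library's trend with GC content was removed.

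Acetazolamide inhibits carbonic anhydrases, the zinc enzymes that interconvert carbon dioxide and bicarbonate. Cholangiocytes line the bile ducts and secrete a bicarbonate-rich fluid. In them carbonic anhydrase supplies bicarbonate for the apical chloride/bicarbonate exchanger SLC4A2, which works beside chloride channels, and a soluble adenylyl cyclase senses bicarbonate inside the cell. An enzyme inhibitor acts on the protein, so transcript levels show how the cells stood after treatment and not the inhibition itself, and no readout of bicarbonate secretion or pH was among the data used here.

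Total counts were 12529867 to 30794026 in the control libraries and 16494684 to 34843761 in the acetazolamide libraries, so that 3 counts, taken as the most that a count of 0 allows, stood for 0.0861 to 0.239 CPM, the scale on which counts are divided by library size. This limit covers counting error only. The labelled cell type was checked against 25 cholangiocyte markers, of which 17 had at least 10 counts in every one of the 6 libraries, including KRT7, KRT19 and EPCAM, while SCTR and SPP1 had 0 counts in all 6. Of the hepatocyte markers 4 of 22 reached that level, and ALB had 0 counts in 5 libraries and 1 count in acetazolamide library 1. The corresponding numbers were 10 of 17 for mesenchymal, 4 of 10 for endothelial and 1 of 12 for leukocyte markers. For the summed levels of these 5 lists the exact two-sided permutation p between the groups was 0.4 to 0.9, and 3 libraries against 3 cannot give a p below 0.1. The share of counts from mitochondrially encoded genes was 16.2% in control library 2 and 9.43% to 11.8% in the other 5 libraries.

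No gene passed the test in acetazolamide against control. With edgeR's quasi-likelihood test and Benjamini-Hochberg adjustment over all genes, 0 of 15997 genes (0%) had an adjusted p under 0.05, and the lowest adjusted p was 0.821. An unadjusted p under 0.05 was found for 292 genes, of which 184 (1.15%) were higher and 108 (0.675%) lower after acetazolamide. After the GC trend of each library had been removed, again 0 of 15737 genes (0%) passed, the lowest adjusted p was 0.0598, and 593 genes had an unadjusted p under 0.05, 367 of them (2.33%) higher and 226 (1.44%) lower. Of these, 226 genes were under 0.05 in both fits. The genes under 0.05 made up 1.83% of those tested without and 3.77% with GC correction. Both shares are below the 0.05 that such a test gives on average when nothing differs. The size of the differences was small in most genes. The median absolute log2 fold change was 0.13 without and 0.10 with GC correction, and the 95% interval of the difference lay within 1 log2 unit of 0, that is within a doubling or halving, for 12815 genes (80.1%) and 13174 genes (83.7%). Genes whose 3 acetazolamide values all lay above the 3 control values made up 3.21% of genes tested (514) and 5.13% with GC correction (808), and those that lay below made up 2.1% (336) and 3.71% (584). Limma's voom also called 0 genes in each fit, with 282 and 635 genes at an unadjusted p under 0.05, whereas DESeq2 called 7 genes without and 10 with GC correction, all but 1 of them among the leading genes described here.

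**Figure D1:**
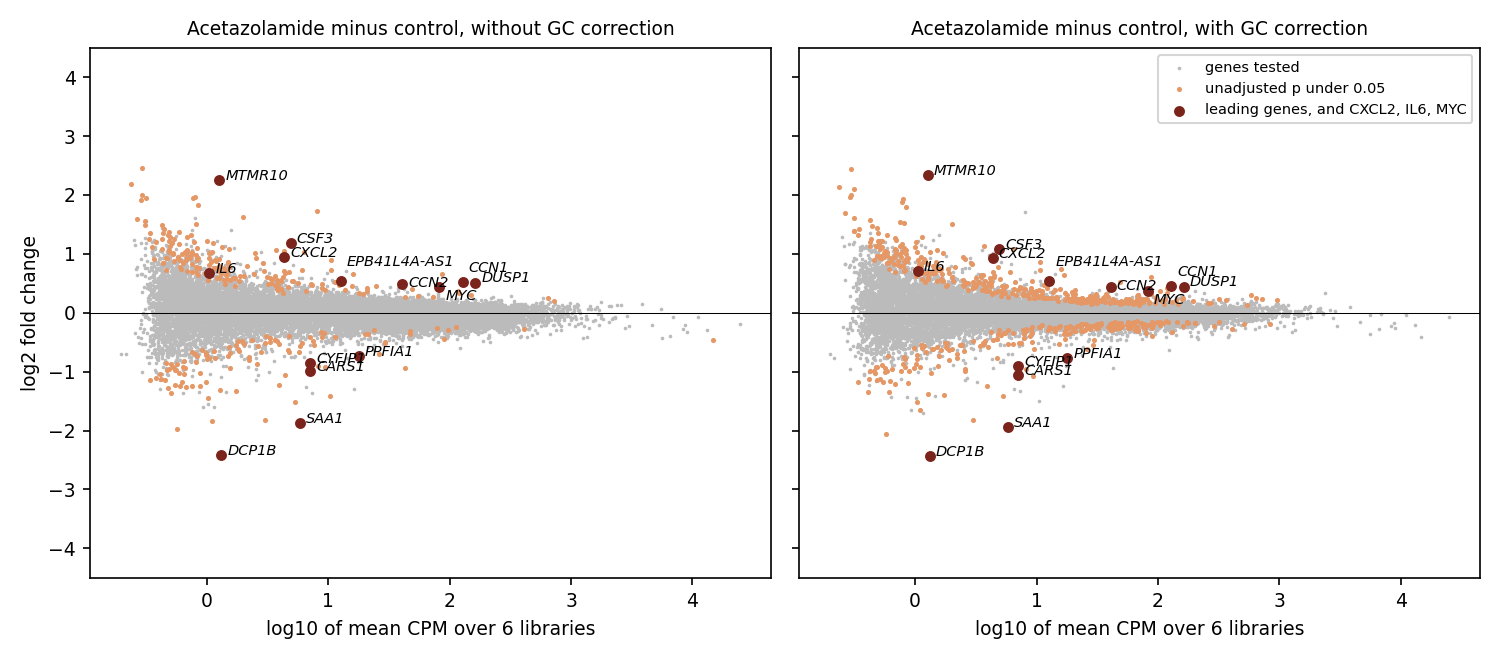
The log2 fold change of acetazolamide minus control (vertical axis) is plotted for each gene tested against the log10 of its mean CPM over the 6 libraries (horizontal axis), without GC correction on the left and with it on the right. Orange points are genes with an unadjusted p under 0.05, 292 on the left and 593 on the right, dark red points are the genes labelled, and no gene passed the adjusted threshold on either side.

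The libraries differed in how counts depended on the GC content of genes, and this difference was largest between libraries of the same group. Between genes of the highest GC content (61.39% and above) and those of the lowest (39.96% and below), the median deviation from the mean of all 9 libraries differed on the log2 scale by 0.21, -0.71 and 0.98 in acetazolamide libraries 1, 2 and 3, and by -0.33, -0.23 and 0.19 in the control libraries. Acetazolamide libraries 2 and 3 thus lay on opposite sides of the controls, and the GC trend held 34.3% and 47.7% of the variance of their deviations. The trends of the groups overlapped. Taking the trend out lowered the median standard deviation between libraries of a group from 0.27 to 0.16 and the median standard error of the fold change from 0.21 to 0.13, all on the log2 scale. Acetazolamide library 2 weighed most on the count of small p-values. Without it, 1521 genes had an unadjusted p under 0.05 in the uncorrected fit and 1418 in the corrected fit, and 0 and 3 genes passed the adjusted threshold, CSF3 and MTMR10 among the 3.

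**Figure D2:**
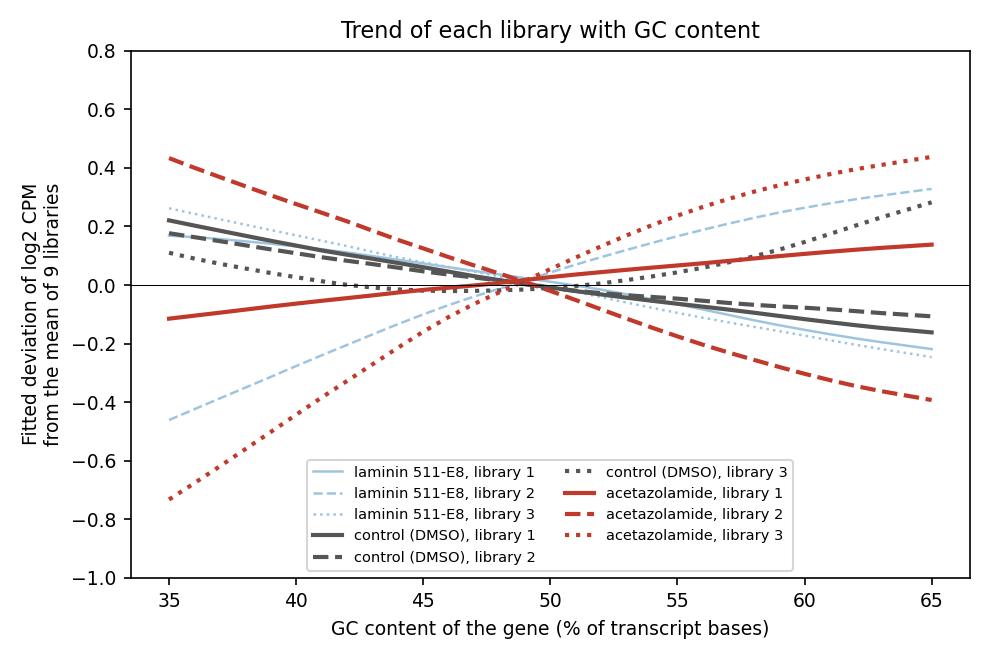
Fitted deviation of log2 CPM from the mean of the 9 libraries (vertical axis) against the GC content of the gene in percent (horizontal axis), with 1 line per library. Acetazolamide libraries 2 (dashed red) and 3 (dotted red) run in opposite directions, with differences between genes of high and low GC content of -0.71 and 0.98, and the control libraries (grey) lie between them.

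The genes with the smallest p-values among those with at least 1 CPM on average and no overlap between the groups included, on the higher side, CSF3, MTMR10, DUSP1, CCN1, CCN2 and the long non-coding RNA EPB41L4A-AS1, and on the lower side DCP1B, SAA1, CYFIP1, PPFIA1 and CARS1, and 1 further gene on the lower side is not reported here. None passed the threshold in either fit. No overlap was a condition of the choice, so it is not a separate result for these genes. They are given in the order of what their products do, with levels as CPM after TMM scaling.

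CSF3 encodes granulocyte colony-stimulating factor, a cytokine that drives the making of neutrophils (chromosome 17, 40015361 to 40017813, plus strand, GRCh38). It had 85, 45 and 47 reads in the control and 253, 121 and 145 reads in the acetazolamide libraries, or 2.80, 2.61 and 3.68 CPM against 7.08, 4.90 and 8.50 CPM. All 3 acetazolamide libraries lay above the controls, as the choice of genes required. The log2 fold change was 1.18 ± 0.24 (SE, n = 3 per group) without GC correction, with an unadjusted edgeR p of 0.000548, and 1.09 ± 0.13 with it, with an adjusted edgeR p of 0.0598, the lowest of all genes. Leaving out each library in turn gave 1.04 to 1.15 in the corrected fit, and DESeq2 called the gene in both fits.

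SAA1 encodes serum amyloid A, an acute-phase protein (chromosome 11, 18266174 to 18269977, plus strand). Its level was 5.04, 9.82 and 13.0 CPM in the control and 3.42, 1.17 and 2.64 CPM in the acetazolamide libraries. The controls spread more than the treated libraries, from 5.04 to 13.0 CPM. The log2 fold change was -1.87 ± 0.44 without and -1.94 ± 0.43 with GC correction (unadjusted edgeR p of 0.00186 and 0.00157). SAA2, a paralog of nearly the same sequence with which SAA1 can share reads, had log2 fold changes of -0.17 ± 0.13 and -0.20 ± 0.11, so the assignment of reads between the copies leaves the SAA1 value uncertain.

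DUSP1 encodes a phosphatase that switches off MAP kinases and is itself induced within minutes by many stimuli. CCN1 and CCN2 encode secreted matrix proteins that are standard targets of the YAP/TEAD and SRF pathways. For DUSP1 (chromosome 5, 172768090 to 172771195, minus strand) the control libraries held 133, 130 and 141 CPM and the acetazolamide libraries 196, 179 and 198 CPM. For CCN1 (chromosome 1, 85580761 to 85583962, plus strand) the values were 114, 102 and 99.4 CPM against 149, 142 and 161 CPM. For CCN2 (chromosome 6, 131948176 to 131951373, minus strand) they were 36.4, 33.6 and 32.1 CPM against 47.6, 46.3 and 49.1 CPM. In each of these genes every acetazolamide library lay above every control library, as the choice of genes required. The differences were of similar size. The log2 fold changes were 0.50 ± 0.10, 0.52 ± 0.11 and 0.48 ± 0.11 for DUSP1, CCN1 and CCN2 without GC correction, that is about 1.4-fold, and 0.44 ± 0.08, 0.45 ± 0.14 and 0.44 ± 0.08 with it. The unadjusted edgeR p was 0.000209 for DUSP1 and 0.000215 for CCN2 in the corrected fit, with an adjusted p of 0.677 for both. For CCN1 it was 0.000685 without and 0.00912 with correction, with an adjusted p of 0.956 in the corrected fit, and DESeq2 called CCN1 in the uncorrected fit and not in the corrected one.

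The promoters of CCN2 and DUSP1 are shown because they hold the short motifs by which these genes are usually described as responsive, in RefSeq sequence of GRCh38.p14. Each sequence covers the 150 bases before the RefSeq start of transcription, on the minus strand, and capitals mark the TEAD motif in CCN2 and the cAMP response element half-site in DUSP1, on either strand.
CCN2 promoter, chr6:131951373-131951522: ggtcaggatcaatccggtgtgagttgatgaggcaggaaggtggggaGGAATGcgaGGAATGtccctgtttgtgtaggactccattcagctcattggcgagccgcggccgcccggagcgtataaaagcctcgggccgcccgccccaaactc
DUSP1 promoter, chr5:172771196-172771345: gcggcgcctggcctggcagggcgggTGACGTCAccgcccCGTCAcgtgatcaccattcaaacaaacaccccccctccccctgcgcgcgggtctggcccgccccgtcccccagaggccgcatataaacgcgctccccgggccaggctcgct
The search covered 250 bases before the start of 27195 RefSeq promoters and read both strands. The TEAD motif CATTCC was in 11.9% of them, and CCN2 held 3 matches, of which the 2 in capitals lie 104 to 99 and 95 to 90 bases before the start. The half-site TGACG was in 21.6% of them, and DUSP1 held 4 matches, of which 3 are in capitals and 2 of those overlap as the palindrome TGACGTCA. Neither gene had a match to an NF-kB motif (1.7% of promoters), to the AP-1 motif TGANTCA (6.6%) or to the CArG box bound by SRF (1.1%). PPFIA1, a leading gene on the lower side, also held a match to TGACG, 36 to 32 bases before its start. These are matches of letters in this window only, and the data hold no measurement of binding.

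MTMR10 encodes a myotubularin-related protein without phosphatase activity, and DCP1B a part of the mRNA decapping complex. They had the largest differences among the leading genes in each direction and also few reads. MTMR10 (chromosome 15, 30938941 to 30991607, minus strand) had 14, 7 and 6 reads in the control and 96, 48 and 28 reads in the acetazolamide libraries, or 0.461, 0.407 and 0.470 CPM against 2.69, 1.94 and 1.64 CPM. It reached the mean of 1 CPM only through the acetazolamide libraries, with means of 0.446 CPM in the control and 2.09 CPM in the acetazolamide libraries. Its log2 fold change was 2.26 ± 0.33 without GC correction, with an adjusted edgeR p of 0.821, and 2.33 ± 0.32 with it, with an adjusted p of 0.0897. FAN1 lies on the opposite strand and shares 17.1% of the exon bases of MTMR10, and whether the counting used strand is not given in the sources used here. FAN1 itself had 37, 21 and 28 reads in the control and 52, 34 and 22 reads in the acetazolamide libraries, a log2 fold change of -0.07 ± 0.47.

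DCP1B (chromosome 12, 1946054 to 2004535, minus strand) had 50, 37 and 38 reads in the control and 14, 12 and 5 reads in the acetazolamide libraries, or 1.65, 2.15 and 2.98 CPM against 0.392, 0.486 and 0.293 CPM. Each treated library was thus far below each control. DCP1B was chosen for groups that did not overlap and for a small p, which favours such a gap. The gap is therefore not a separate result. The log2 fold change was -2.41 ± 0.51 and with GC correction -2.44 ± 0.49 (unadjusted edgeR p of 0.000849 and 0.000407). DESeq2 called MTMR10 and DCP1B in both fits.

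The other leading genes differed less. CYFIP1, a subunit of the WAVE complex that controls actin branching, had 8.63, 9.93 and 8.94 CPM in the control and 5.46, 4.73 and 4.87 CPM in the acetazolamide libraries, with a log2 fold change of -0.90 ± 0.19 after GC correction. NIPA2 lies on the opposite strand over 12.8% of the exon bases of CYFIP1 and had a log2 fold change of -0.52 ± 0.29 in the same fit. PPFIA1, a liprin scaffold protein of cell adhesion sites, had 20.8, 19.98 and 26.6 CPM against 14.6, 10.9 and 14.7 CPM, a log2 fold change of -0.78 ± 0.16. CARS1, the cytosolic cysteinyl-tRNA synthetase, had 7.41, 8.02 and 13.2 CPM against 5.74, 3.36 and 4.87 CPM, a log2 fold change of -1.05 ± 0.23. All of these had unadjusted edgeR p-values under 0.001 with GC correction, from 0.000539 to 0.000897.

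The long non-coding RNA EPB41L4A-AS1 had 11.3, 9.64 and 9.96 CPM against 15.3, 15.9 and 14.1 CPM, with a log2 fold change of 0.54 ± 0.11 after GC correction. It shares 49.6% of its exon bases with EPB41L4A on the opposite strand, which had a log2 fold change of 0.14 ± 0.13.

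The laminin 511-E8 libraries, grown and sequenced in the same study, show where these values stood beside another treatment. Both comparisons used the same 3 control libraries, so their fold changes against control are not independent. The leading genes were chosen by acetazolamide values that are used again here, so their differences from laminin 511-E8 are not separate support. CSF3 had 6.63, 7.47 and 5.95 CPM after laminin 511-E8, and its corrected log2 fold changes against control were 1.15 for laminin 511-E8 and 1.09 for acetazolamide, with a direct difference of -0.06 ± 0.12. Its adjusted edgeR p against control in that fit was 0.00728 for laminin 511-E8, past the threshold, and 0.0598 for acetazolamide. For CCN2 the corresponding values were 0.46 and 0.44 (difference -0.02 ± 0.08), for PPFIA1 -0.88 and -0.78 (difference 0.11 ± 0.16), and for EPB41L4A-AS1 0.51 and 0.54 (difference 0.04 ± 0.11). For DUSP1 they were 0.27 and 0.44 (difference 0.17 ± 0.08), and for CCN1 0.65 and 0.45 (difference -0.20 ± 0.14). For SAA1 they were -1.49 and -1.94 (difference -0.45 ± 0.46), and for CARS1 -0.62 and -1.05 (difference -0.43 ± 0.23). For CYFIP1 they were -0.19 and -0.90 (difference -0.71 ± 0.19, unadjusted edgeR p of 0.0029), and for DCP1B -0.96 and -2.44 (difference -1.48 ± 0.53, unadjusted p of 0.0168), and neither difference passed the adjusted threshold. Laminin 511-E8 libraries 1, 2 and 3 held 9.79, 9.57 and 5.66 CPM of CYFIP1 and 1.44, 1.79 and 0.472 CPM of DCP1B. Library 3 thus lay near the acetazolamide values in both genes. MTMR10 had 0.749, 0.321 and 0.603 CPM after laminin 511-E8, near the controls, and acetazolamide minus laminin 511-E8 was 2.01 ± 0.29 with GC correction (adjusted edgeR p of 0.0196) and 1.95 ± 0.30 without it (adjusted p of 0.714). Of all genes, 0 of 15997 (0%) differed between the treatments without GC correction, with 374 at an unadjusted p under 0.05. With it 20 of 15737 (0.127%) differed, 15 higher and 5 lower in acetazolamide than in laminin 511-E8 libraries. None of them passed in acetazolamide against control, and such a difference can come from either treatment. KRT19, for example, had corrected log2 fold changes against control of 0.04 for acetazolamide and -0.47 for laminin 511-E8 (adjusted edgeR p of 0.0265 for laminin 511-E8). Of the 11 leading genes described MTMR10 was the only one among these 20, and it had been chosen for the acetazolamide values that this difference uses again.

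Transcripts of the drug's targets, the carbonic anhydrases, did not pass the test. Of 15 genes of the family, 7 had enough counts to be tested, and 0 of 7 were called, against 0% of all genes. CA2 is the abundant cytosolic form, CA9 and CA12 are anchored in the plasma membrane with the active site outside the cell, CA5B is mitochondrial, CA3 and CA13 are cytosolic, and CA11 is a related protein without enzyme activity. CA12 had 16.8, 15.4 and 16.8 CPM in the control and 14.1, 13.6 and 14.7 CPM in the acetazolamide libraries. All treated values lay below the controls, as in 2.1% of all genes. The log2 fold change was -0.21 ± 0.12 (unadjusted edgeR p of 0.123) and with GC correction -0.24 ± 0.08 (unadjusted p of 0.0147, adjusted p of 0.956). Against laminin 511-E8, where CA12 had 19.9, 23.8 and 21.8 CPM, the acetazolamide libraries were lower, with a log2 difference of -0.63 ± 0.08 (adjusted edgeR p of 0.0196 with GC correction, 0.714 without).

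CA9, which is induced by hypoxia, had 32.2, 24.5 and 34.4 CPM in the control and 36.8, 29.5 and 40.6 CPM in the acetazolamide libraries. The groups overlapped, and the log2 fold change was 0.23 ± 0.17 without GC correction, with a 95% interval from -0.15 to 0.62, and 0.15 ± 0.11 with it. CA2 had 15.2, 12.0 and 12.4 CPM against 14.2, 14.4 and 13.6 CPM. Its log2 fold change was 0.08 ± 0.14 without GC correction, with an interval from -0.23 to 0.39, and 0.08 ± 0.10 with it. The groups also overlapped in CA3, CA5B, CA11 and CA13. The intervals of all 7 genes lay within 1 log2 unit of 0 in both fits. The sign of the difference in CA3, CA11 and CA13 turned when single libraries were left out. Among those not tested, CA14 had 4, 2 and 2 reads in the control and 7, 3 and 6 in the acetazolamide libraries, CA4, CA6 and CA7 had at most 1 read in any of the 6 libraries, and CA1, CA5A, CA8 and CA10 had 0 in all 6. The summed level of the family was 85.8 ± 8.83 CPM in the control and 91.6 ± 5.18 CPM in the acetazolamide libraries (SD, n = 3, exact two-sided permutation p = 0.4).

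**Figure D3:**
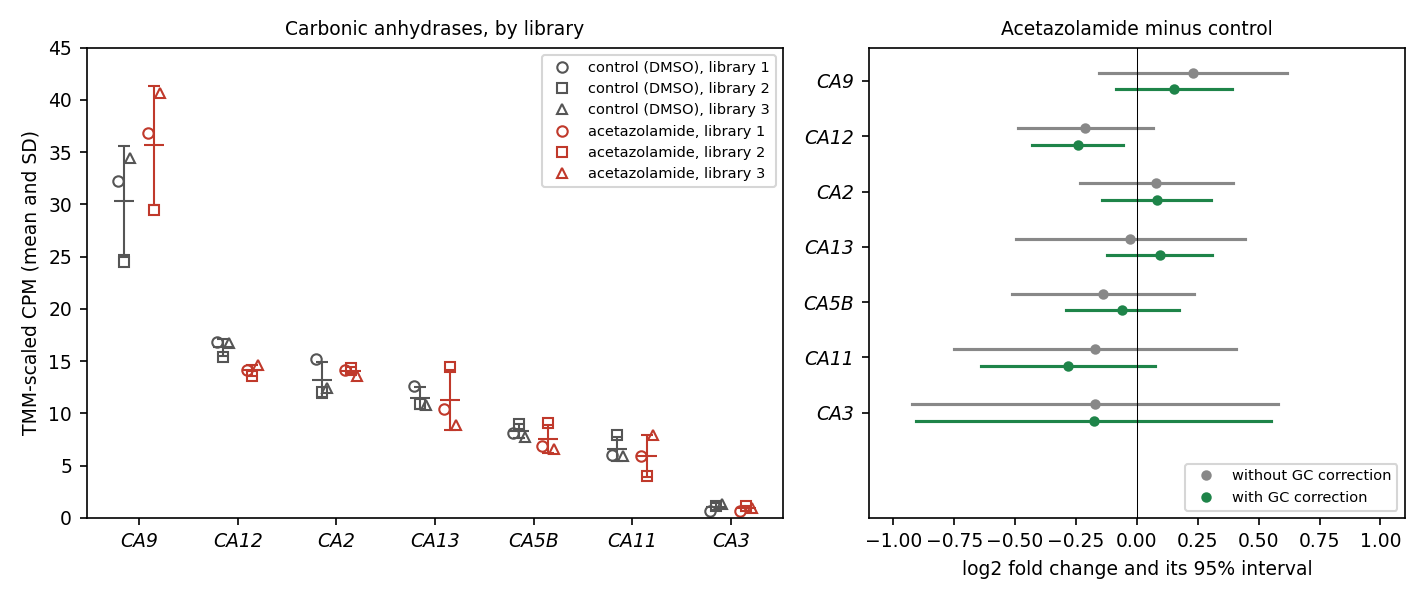
Left, TMM-scaled CPM of the 7 carbonic anhydrases tested, with 1 symbol per library and bars for the mean and SD of control (grey) and acetazolamide (red). Right, the log2 fold change of acetazolamide minus control with its 95% interval, without (grey) and with (green) GC correction, in which only the corrected interval of CA12 (-0.43 to -0.06) leaves out 0.

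Among the genes that handle bicarbonate, acid and fluid beside the enzyme, 0 were called in either fit. Of 29 bicarbonate and acid-base transporters, 18 were tested, 0 had an unadjusted p under 0.05 in either fit, and their median log2 fold change was -0.0015 without and -0.09 with GC correction, beside 0.00 over all genes in each fit. SLC4A2 had 110, 102 and 145 CPM in the control and 128, 86.9 and 166 CPM in the acetazolamide libraries, with acetazolamide library 2 the lowest of the 6 and library 3 the highest. Its corrected log2 fold change was 0.0039 with a 95% interval from -0.15 to 0.16. The lactate transporter SLC16A3 and its partner BSG had corrected values of -0.12 and -0.09. Of 19 subunits and partners of the vacuolar proton pump 17 were tested, with a median of 0.04 with GC correction, and 1 of them, ATP6V1H, had an unadjusted p under 0.05 there (0.28 ± 0.10). Of 17 proton-sensing and soluble adenylyl cyclase genes 10 were tested, with a median of -0.04 and 1 under 0.05, the proton-gated channel ASIC1 (-0.19 ± 0.07). ADCY10, which encodes the soluble adenylyl cyclase, was not tested and had at most 2 reads in any of the 6 libraries. Of 27 chloride, sodium and potassium transporters 22 were tested with a median of 0.03 and 0 under 0.05. The chloride channels CFTR and ANO1 were not tested, with at most 2 reads for CFTR and 0 for ANO1 in each of the 6 libraries. Of 10 aquaporins, the water channels, AQP3 and AQP11 were tested, with corrected log2 fold changes of -0.23 ± 0.17 and -0.37 ± 0.30, and overlapped between the groups, and AQP1 had at most 2 reads in any library. Of 22 genes for bile acid transport and sensing 10 were tested, with a median of -0.05 and 1 under 0.05, the vitamin D receptor VDR (-0.24 ± 0.10). ATP6V1H, ASIC1 and VDR were named after their values were seen.

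Cytokines and chemokines were the list with the highest median. Of 20 genes 13 were tested, 0 were called, and their median log2 fold change was 0.30 without and 0.22 with GC correction. In the fit without correction 3 of the 13 were higher at an unadjusted p under 0.05, where 1.15% of all genes were, and 1, TGFB2, was lower. With correction 4 were higher, where 2.33% of all genes were, and 0 were lower. Besides CSF3, the neutrophil chemokine CXCL2 had 2.77, 2.56 and 3.68 CPM in the control and 4.76, 7.04 and 5.28 CPM in the acetazolamide libraries (log2 fold change 0.95 ± 0.22). IL6 had 0.791, 0.639 and 1.02 CPM against 1.04, 1.70 and 1.11 CPM (0.67 ± 0.29), and IL1A, a cytokine of the IL-1 family, had 0.692, 0.697 and 0.235 CPM against 1.23, 1.38 and 0.469 CPM (0.88 ± 0.42, with overlap before GC correction). These are low levels, near 1 CPM for IL6 and IL1A. In the same list CXCL5 and IL32 had corrected values of -0.13 and -0.12, and TNF had 0 counts. Of 13 genes of NF-kB feedback that were tested, the median was 0.02 with correction, and 1, SOD2, was lower at an unadjusted p under 0.05 (-0.28 ± 0.09), while 0 were higher. CXCL2, IL6 and IL1A were named after their values were seen.

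Of 20 immediate early genes tested, whose transcripts answer growth factors and stress within minutes, 4 (FOS, EGR1, MYC and DUSP1) were higher at an unadjusted p under 0.05 without GC correction and 2 (MYC and DUSP1) with it, where 1.15% and 2.33% of all genes were, and 0 were lower in either. The median was 0.08 and 0.07. In 6 of the 20 without and 5 of the 20 with correction, every acetazolamide library lay above every control, where 3.21% and 5.13% of all genes did. MYC, a transcription factor for growth, had 66.8, 70.0 and 73.6 CPM in the control and 99.3, 81.2 and 104 CPM in the acetazolamide libraries, with a corrected log2 fold change of 0.36 ± 0.08 (unadjusted edgeR p of 0.000982). EGR1 had 48.2, 51.9 and 47.0 CPM against 56.4, 57.4 and 65.9 CPM, and FOS 3.39, 2.73 and 2.195 CPM against 3.95, 4.13 and 4.10 CPM. The differences in EGR1 and FOS were 0.29 ± 0.11 and 0.50 ± 0.20 without correction and 0.22 ± 0.11 and 0.43 ± 0.27 with it. Of 17 YAP and SRF targets tested, CCN1 and CCN2, and with correction also F3 (0.25 ± 0.08), were higher at an unadjusted p under 0.05, beside the same 1.15% and 2.33% of all genes, and the median was 0.05 and 0.02. Of 15 glucocorticoid receptor targets tested, DUSP1, and with correction also SGK1 (0.33 ± 0.10) and PDK4 (0.37 ± 0.14), were higher at an unadjusted p under 0.05, beside these shares of all genes, while FKBP5 had a corrected value of 0.01 ± 0.09. The lists share DUSP1, so their counts are not separate. EGR1, FOS, F3, SGK1 and PDK4 were named after their values were seen.

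The 13 mitochondrially encoded genes had the lowest median of the lists with at least 6 tested members, -0.29 without and -0.23 with GC correction, and 0 of 13 had a fold change above 0. This median rested on control library 2, the one with the high mitochondrial share. Without that library the median was 0.07 and 0.14. MT-CO1, a subunit of cytochrome c oxidase, had 14270, 22056 and 14572 CPM in the control and 12728, 10257 and 14177 CPM in the acetazolamide libraries, the highest control value being that of library 2. Its acetazolamide values also lay below control libraries 1 and 3, and 2.1% of all genes lay below all controls without GC correction. The log2 fold change was -0.45 ± 0.18 without correction (unadjusted edgeR p of 0.0284). With correction it was -0.42 ± 0.19 (unadjusted p of 0.0549), and the groups overlapped. Neither passed the adjusted threshold.

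Over all 37 lists together 508 different genes were tested, of which 12 (2.36%) were higher and 6 (1.18%) lower at an unadjusted p under 0.05 without correction, and 14 (2.76%) and 10 (1.97%) with it. The corresponding shares of all genes were 1.15% and 0.675% without and 2.33% and 1.44% with correction, and the lists were chosen with earlier results known. With GC correction the median was 0.03 for 21 genes of glycolysis, 0.04 for 22 of the hypoxia response, 0.00 for 24 of sterol synthesis, 0.06 for 18 of the unfolded protein and amino acid response, 0.03 for 15 NRF2 targets, -0.13 for 10 metallothionein and zinc genes, 0.03 for 14 p53 targets, -0.02 for 19 DNA replication genes and 0.05 for 19 mitosis genes. In glycolysis LDHA was lower at an unadjusted p under 0.05 in both fits (-0.52 ± 0.18 and -0.46 ± 0.19), and in apoptosis BCL2 was (-0.97 ± 0.35 and -0.92 ± 0.38), at levels of 0.407 to 0.862 CPM in the control and 0.280 to 0.352 CPM in the acetazolamide libraries. LDHA and BCL2 were named after their values were seen. Of the genes the study centres on, LGALS3, which encodes galectin-3, had 95.6, 82.4 and 92.5 CPM in the control and 93.6, 112 and 86.4 CPM in the acetazolamide libraries. Its log2 fold change was 0.11 ± 0.12 without and 0.09 ± 0.23 with GC correction, which widened its spread. The prohibitin genes PHB1 and PHB2 had corrected values of -0.01 ± 0.06 and 0.03 ± 0.07. The cholangiocyte keratins KRT7 and KRT19 had corrected values of 0.03 ± 0.06 and 0.04 ± 0.07, and KRT19 was higher than after laminin 511-E8 by 0.51 ± 0.07 (adjusted edgeR p of 0.0196 with GC correction).

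The cells are a single line treated at 1 dose and harvested at 1 time, so how these values vary over dose, time or other cholangiocytes was not measured. As 4 cultures per group were assessed and those with the best RNA integrity were sequenced, the p-values cover the spread between these libraries.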

How the data were processed

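Poly(A) RNA libraries of H69 cells were analysed, 3 for each of control, acetazolamide and laminin 511-E8. What the authors deposited for them are raw counts, whole numbers of reads for each gene with no normalization. The submitters' processing notes name FastQC 0.11.9, Trimmomatic 0.39, HISAT2 2.2.1, HTSeq 0.11.0 and GRCh38. Annotation release, strand setting and handling of multi-mapped reads: not given in the sources used here. Every row named a gene, and every column belonged to a sample. Of 61541 identifiers 61369 were matched to the name table and 105 to GENCODE release 29 alone, which also gave coordinates and the GC content of 58312 genes.

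Counts were tested with edgeR 4.0.16 in R 4.3.3 (filterByExpr by group, TMM scaling, robust quasi-likelihood fit of all 9 libraries, contrast acetazolamide minus control, Benjamini-Hochberg threshold of 0.05). For the GC correction, each library's log2 CPM deviation from the mean of the 9 libraries (prior count 2) was regressed locally (span 0.3) on gene GC content, and the trend was entered as an offset. Intervals are at 95%. Single values per library were compared by exact permutation. Alternatives were DESeq2 1.42.0, limma 3.58.1 (voom), RLE and upper-quartile scaling, other filters, fits and thresholds, other GC trends, a replicate block and leaving out each library. A GC trend of degree 2 and the GC content of the longest transcript were chosen after seeing the data. The steps were tested on simulated counts. Python 3.11.15, pandas 2.3.3, SciPy 1.17.1 and matplotlib 3.10.9 were used for tables and plots.

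The genes to name were, for each fit and direction, the 10 called genes of largest change whose groups did not overlap and whose mean reached 1 CPM, or, with fewer than 5 such genes, the 5 of smallest p under these conditions, all carbonic anhydrases, up to 4 passing members of each list or else the 3 with the highest CPM, and genes the study names. The comparison, the 37 lists and the rules were chosen with earlier results of these data known. No gene set test was run. Values of a few genes that these rules would name are left out of the text. The laminin 511-E8 libraries entered the fit and the direct comparison with acetazolamide.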

Additional observations from a re-analysis of the deposited data

How the results depend on the processing

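Without GC correction the count of 0 genes held under 17 of 18 alternatives, and DESeq2 called 7 (5 higher, 2 lower). With GC correction DESeq2 called 10 (4 higher, 6 lower), 6 of them shared with the former 7, the fit with no filter on low counts called 2 and a threshold of 0.1 passed 2, CSF3 and MTMR10 in each case. Leaving out each library gave 0 to 3 genes, the 3 without acetazolamide library 2. The cause was not tested. Genes that differed between acetazolamide and laminin 511-E8 numbered 0 without and 20 with GC correction.

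The replicate numbers share only a number between groups. Deviations of same-numbered control and acetazolamide libraries correlated at -0.22, 0.09 and 0.24, and not every library correlated best with its own number. With the replicate number as a block 0 genes were called in either fit, with 200 and 410 at an unadjusted p under 0.05.

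The sign of CA13 without GC correction turned under upper-quartile scaling (0.016) and over left-out libraries (-0.24 to 0.11), and with correction it turned without the filter (-0.011). CA3 ranged from -0.52 to 0.048 without and from -0.51 to 0.031 with correction over left-out libraries, and CA11 from -0.39 to 0.049 without. Of the other values of single genes under alternatives, 668 kept their sign and side of the threshold and 22 kept their sign and moved past it. Counts of 6 to 14 reads in the control libraries limit MTMR10.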
